A study of Caenorhabditis elegans with 6 samples.

Results

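Glutathione S-transferase (GST) genes were followed as a family in worms labelled ung-1 mutant and in wild type N2, the standard laboratory strain of Caenorhabditis elegans. Members were the genes whose array probe set carried a single symbol made of gst, gsto or gstk and a number. This gave 45 genes of the 17118 genes measured, on 46 of the 22548 probe sets tested. Where a gene had more than one probe set, the one with the highest mean stood for it, and only gst-40 had another. The RefSeq gene table (assembly WBcel235) holds 49 genes of this naming, and gst-25, gst-34, gst-35 and gst-37 were not analysed here.

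UNG-1 is the worm's uracil-DNA glycosylase, a base excision repair enzyme that cuts uracil out of DNA. Total RNA of 3 ung-1 mutant and 3 N2 samples, called biological replicates in the labels, was hybridised to 1-colour Affymetrix C. elegans genome arrays. The sample labels call the worms a mutant, whereas the design text speaks of RNAi, and no allele, stage, sex, culture condition or DNA damaging treatment was given. Whether the replicates came from separate cultures is not stated, so the p-values measure only the spread between these samples, which may be technical. Each value is a probe set intensity in arbitrary units, and each fold change is the ung-1 mutant mean minus the N2 mean of log2(intensity + 16), with its standard error and adjusted p from limma (Benjamini-Hochberg over all probe sets). Because RNA came from worms of unstated makeup, fewer cells of a type and less RNA per cell cannot be told apart.

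GSTs join the tripeptide glutathione to reactive compounds, such as lipid peroxidation products and plant or bacterial toxins, which makes them more soluble and ready for export from the cell. In C. elegans many members are expressed in intestine and hypodermis. The transcription factor SKN-1, the worm counterpart of Nrf proteins, raises a subset of them under oxidative or electrophile stress, and the WD40 protein WDR-23 holds SKN-1 down. The family splits into classes, among them pi, zeta, omega and kappa, and a large nematode-specific branch that lies in runs of neighbouring genes.

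The ung-1 probe set read 54.9, 55.3 and 47.7 on mutant replicates 1 to 3, against 236, 254 and 296 on N2 replicates 1 to 3. All mutant arrays lay below those of N2 (log2 fold change -2.01, SE 0.15, limma adjusted p 0.0765). The labels name the gene but state no direction for its RNA. The median intensity per array was 152.8 to 161.0 for the mutant and 158.3 to 167.9 for N2. Control probe sets gave 3' to 5' ratios, a sign of RNA integrity. For GAPDH the ratio was 5.01 to 8.77 in the mutant and 8.3 to 11.8 in N2. For actin it was 2.89 to 4.44 against 3.72 to 5.23, and for ubiquitin 3.95 to 4.41 against 4.28 to 5.32. For catalase it was 25.9 to 32.2 against 28.3 to 31.0. Each of these ranges overlapped between the genotypes. Mutant replicate 3 and N2 replicate 2 were the least alike of all pairs of arrays (Pearson r = 0.924 across probe sets, which are not independent). Probe sets were present for 8 of 8 intestine, 7 of 8 hypodermis, 7 of 8 sperm, 8 of 8 oocyte, 4 of 4 body wall muscle and 4 of 4 neuron markers, and none read 0.

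No GST gene passed the test between the ung-1 mutant and N2. Of the 45 members, 0 passed limma's adjusted p of 0.05, where 0.0% of all genes did, and each had an adjusted p of 0.999. At an unadjusted p of 0.05 the count was also 0, against 1.86% of all genes. The count at the unadjusted level became 1 without mutant replicate 1, where gst-15 stood at 0.79 (SE 0.29), and 1 without N2 replicate 3, where gst-18 stood at -0.70 (SE 0.22). That is 2.22% of members in each case, against 2.96% and 3.97% of all genes under the same settings. Fold changes of the members ran from -0.47 for gst-18 to 0.69 for gsto-1, with none at 2-fold, a size that 0.286% of all genes reached.

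The family was split by sign, with 24 members above 0 and 21 below, and its median log2 fold change was 0.015. All genes had a median of -0.040, with 41.7% of them above 0. The family median was 0.111 without N2 replicate 2, where all genes had -0.006, and -0.042 without N2 replicate 3, where all genes had -0.054. The 95% confidence interval lay inside a 2-fold change in both directions for 33 of 45 members (73.3%), and for 82.0% of all genes. For the other 12 members, a 2-fold difference in at least one direction was within the interval.

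**Figure D1:**
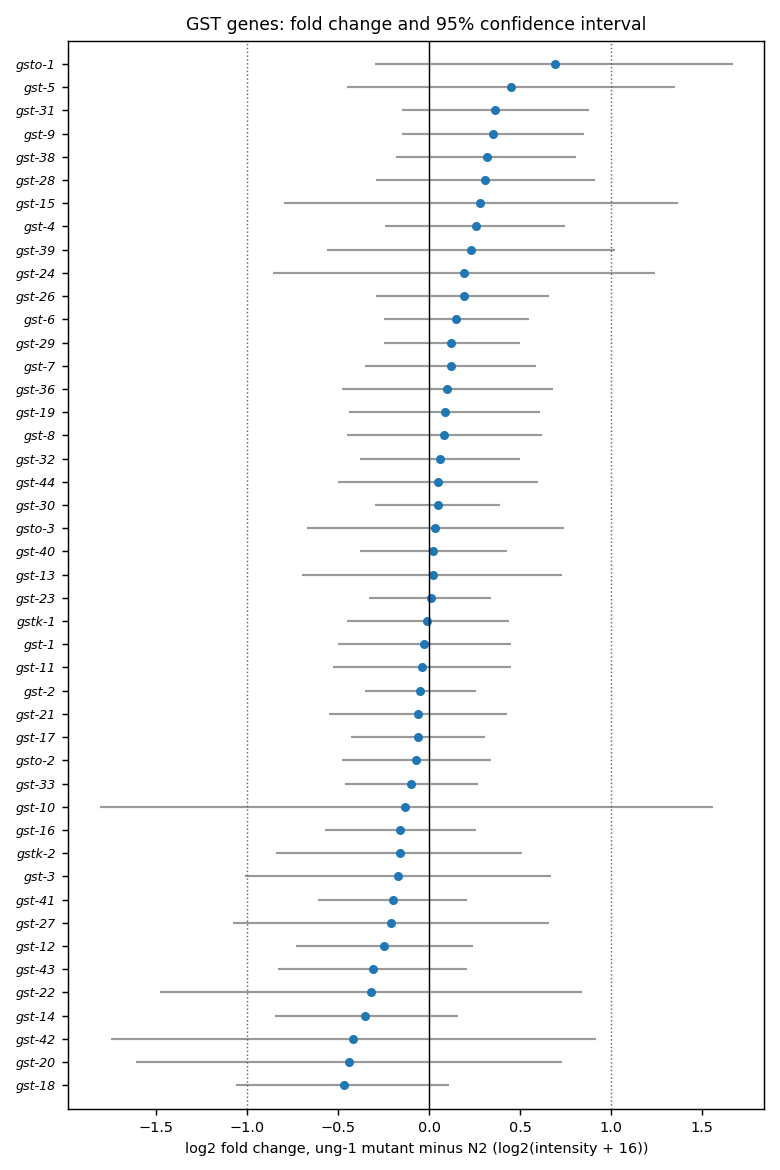
Log2 fold change, ung-1 mutant minus N2, of each of the 45 GST genes (points) with its limma 95% confidence interval (grey lines). Dotted lines mark a 2-fold change. All intervals include 0, from gst-18 at -0.47 to gsto-1 at 0.69, and 33 lie between the dotted lines.

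The gene gst-1 encodes a pi class GST. It read 2228, 1971 and 1725 on mutant replicates 1 to 3, against 1756, 2554 and 1793 on those of N2. The groups overlapped, with a log2 fold change of -0.03 (SE 0.20, 95% interval -0.50 to 0.45).

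The other pi class gene, gst-10, encodes an enzyme that conjugates the lipid peroxidation product 4-hydroxynonenal. It read 1155, 320 and 313 on mutant replicates 1 to 3, against 360, 1410 and 298 on those of N2. One array of each genotype thus stood far above the other 4, and the highest value was 4.72 times the lowest. The fold change was -0.13 with an interval from -1.81 to 1.56, the widest in the family. It was 0.56 without N2 replicate 2 and -0.73 without mutant replicate 1, so a direction could not be given.

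Further genes whose products act on 4-hydroxynonenal in worms are gst-5, gst-6, gst-8 and gst-24. The gene gst-5 read 118, 117 and 322 on mutant replicates 1 to 3, against 107, 145 and 104 on those of N2. Its higher mutant mean rested on replicate 3, and the fold change of 0.45 (SE 0.38) was 0.004 without that array. The gene gst-24 read 167, 124 and 413 in the mutant, against 146, 269 and 146 in N2. It too was highest on mutant replicate 3, and its fold change of 0.19 (SE 0.44) turned to -0.29 without that array. The gene gst-6 read 136, 164 and 135 in the mutant, against 125, 152 and 112 in N2 (0.15, SE 0.17). Its fold change was 0.07 without mutant replicate 2 and 0.06 without N2 replicate 3. The gene gst-8 read 165, 99.4 and 90.9 in the mutant, against 117, 97.8 and 108 in N2 (0.08, SE 0.23). Its sign followed mutant replicate 1, and it stood at -0.15 without that array.

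The gene gst-4 is the usual reporter of SKN-1 activity in living worms. It read 172, 150 and 136 on mutant replicates 1 to 3, against 139, 91.5 and 151 on those of N2. The groups overlapped, the lowest value being that of N2 replicate 2, and the fold change was 0.26 (SE 0.21, 95% interval -0.24 to 0.75). It was 0.06 without N2 replicate 2. The gene gst-38, which also rises in worms that lack WDR-23, read 253, 199 and 299 in the mutant, against 157, 226 and 209 in N2 (0.32, SE 0.21). It was 0.17 without N2 replicate 1 and 0.19 without mutant replicate 3. The gene gst-30, of the same response and named here after its values were seen, read 99.0, 97.8 and 112 in the mutant, against 97.3, 110 and 90.8 in N2. Its interval of -0.30 to 0.39 was among the narrowest of the family.

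The gene gst-7 read 1562, 1234 and 1259 on mutant replicates 1 to 3, against 1239, 1004 and 1513 on those of N2. The fold change was 0.12 (SE 0.20), with overlapping groups, and it was -0.03 without N2 replicate 2.

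The zeta class gene gst-42 is predicted to encode maleylacetoacetate isomerase of the tyrosine degradation pathway. It read 404, 264 and 404 on mutant replicates 1 to 3, against 312, 1261 and 265 on those of N2. N2 replicate 2 was 3.12 times the next highest array, the largest such step in the family, and the remaining 5 arrays overlapped. The fold change of -0.42 (SE 0.56) was 0.28 without N2 replicate 2. The related gene gst-43 read 243, 239 and 287 in the mutant, against 280, 439 and 265 in N2. N2 replicate 2 was again the highest array, and the fold change of -0.31 (SE 0.22) was -0.09 without it.

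The omega class, whose members reduce oxidised substrates through an active-site cysteine, held 3 measured genes of that name. The gene gsto-1, expressed in the intestine and active in the response to oxidative stress, read 2587, 4923 and 2284 on mutant replicates 1 to 3, against 2757, 1116 and 2245 on those of N2. The highest and lowest arrays lay in opposite genotypes, while the other 4 overlapped. Its fold change of 0.69 (SE 0.42, 95% interval -0.30 to 1.67) was the largest of the family. It was 0.35 without mutant replicate 2 and 0.30 without N2 replicate 2. The gene gsto-2 read 132, 86.6 and 106 in the mutant, against 111, 114 and 115 in N2 (-0.07, SE 0.17). The gene gsto-3 read 241, 479 and 259 in the mutant, against 379, 312 and 236 in N2 (0.03, SE 0.30). Both overlapped between the genotypes, and the sign of each turned with 1 array left out.

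Kappa class GSTs are enzymes of mitochondria and peroxisomes in mammals. The gene gstk-1 read 444, 301 and 335 on mutant replicates 1 to 3, against 324, 402 and 349 on those of N2, a fold change of -0.01 (SE 0.19). The gene gstk-2 read 698, 876 and 926 in the mutant, against 684, 1415 and 823 in N2. N2 replicate 2 was the highest array, and the fold change of -0.16 (SE 0.28) was 0.14 without it.

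Many of the remaining genes lie in runs of neighbours, here defined as family genes with at most 2 other protein-coding genes between them in the RefSeq table. On chromosome II a run of 9 genes (gst-20, gst-24, gst-15, gst-14, gst-12, gst-16, gst-19, gst-17 and gst-18) was measured in full. Its median fold change was -0.157, with 3 genes above 0 and 6 below. Of these 9 genes, 5 were highest on N2 replicate 2, where the run stood at 0.409 on the log2 scale relative to each gene's mean. Of all genes, 33.2% were highest on that array, with a median of 0.085. The lowest array for 6 of the 9 was mutant replicate 2, at -0.317. Of all genes, 20.1% were lowest there, with a median of -0.051.

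Within this run, gst-18 had the lowest fold change of the family. It read 160, 130 and 139 on mutant replicates 1 to 3, against 199, 292 and 146 on those of N2. Mutant replicate 1 lay above N2 replicate 3, so the groups overlapped (-0.47, SE 0.25, 95% interval -1.06 to 0.11). The fold change was -0.23 without N2 replicate 2. The gene gst-14 read 73.6, 67.0 and 81.5 in the mutant, against 75.7, 136 and 91.8 in N2 (-0.35, SE 0.21). The gene gst-12 read 140, 109 and 165 in the mutant, against 155, 204 and 141 in N2 (-0.25, SE 0.21). For all 3 genes the top array was N2 replicate 2, without which gst-14 stood at -0.15 and gst-12 at -0.11. Without mutant replicate 2, gst-12 also stood at -0.11. Neighbours did not share one profile, since gst-20 was highest on N2 replicate 2 at 954, against a next value of 395, whereas gst-15 was highest on mutant replicate 3 at 495, against a next value of 259.

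A further run on chromosome II holds gst-26, gst-27, gst-28, gst-29, gst-39, gst-31 and gst-32 among the measured genes. Its median fold change was 0.185, with 6 of 7 genes above 0. It contained gst-31, the only member of the family whose groups did not overlap on the probe set used, against 6.41% of all genes. This dim gene, at the 7.87th percentile of mean intensity among all genes, read 43.3, 42.8 and 76.7 on mutant replicates 1 to 3. On those of N2 it read 32.9, 36.9 and 42.6. Mutant replicate 2 lay just above N2 replicate 3, and the fold change was 0.36 (SE 0.22, limma adjusted p 0.999; two-sided exact permutation p = 0.1, the smallest that 3 against 3 arrays allow). It was 0.15 without mutant replicate 3. The gene gst-27 went the other way, at -0.21 (SE 0.37), with N2 replicate 2 at 1830 and the next highest array at 1035.

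On another stretch of chromosome II lie gst-6, gst-7, gst-8 and gst-9, which were all above 0 with a median of 0.135. The gene gst-9 read 82.3, 79.0 and 90.7 on mutant replicates 1 to 3, against 79.5, 42.5 and 70.2 on those of N2. Its groups overlapped by a narrow margin, and the fold change of 0.35 (SE 0.21) was 0.14 without N2 replicate 2. On chromosome IV, gst-3, gst-2 and gst-4 are neighbours. The dim gene gst-2 stayed between 36.3 and 39.2 on all 6 arrays (-0.05, SE 0.13), and gst-3 ran from 70.9 to 212 without separating the genotypes (-0.17, SE 0.35).

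Outside these runs, gst-41 read 69.4, 74.6 and 65.6 on mutant replicates 1 to 3, against 87.8, 98.3 and 64.9 on those of N2 (-0.20, SE 0.17). N2 replicate 3 was the lowest array of all, so the groups overlapped, and the fold change was -0.10 without N2 replicate 2. Taking the family as measured, 23 members were not named by the rule for named genes, and their fold changes ran from -0.44 for gst-20 to 0.31 for gst-28. The second, dim probe set of gst-40 read 25.1, 20.7 and 25.1 in the mutant, against 17.4, 18.8 and 17.8 in N2, with the groups apart (0.22, SE 0.13, adjusted p 0.999). Its values on mutant replicates 1 and 3 were restored from spreadsheet dates. The brighter probe set of gst-40 overlapped (0.02, SE 0.17). Of the 45 members, 8 were measured on probe sets that can match several transcripts, namely gst-9, gst-16, gst-19, gst-20, gst-27, gst-33, gst-41 and gstk-2, and 10 had a mean below the 25th percentile of all probe sets.

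**Figure D2:**
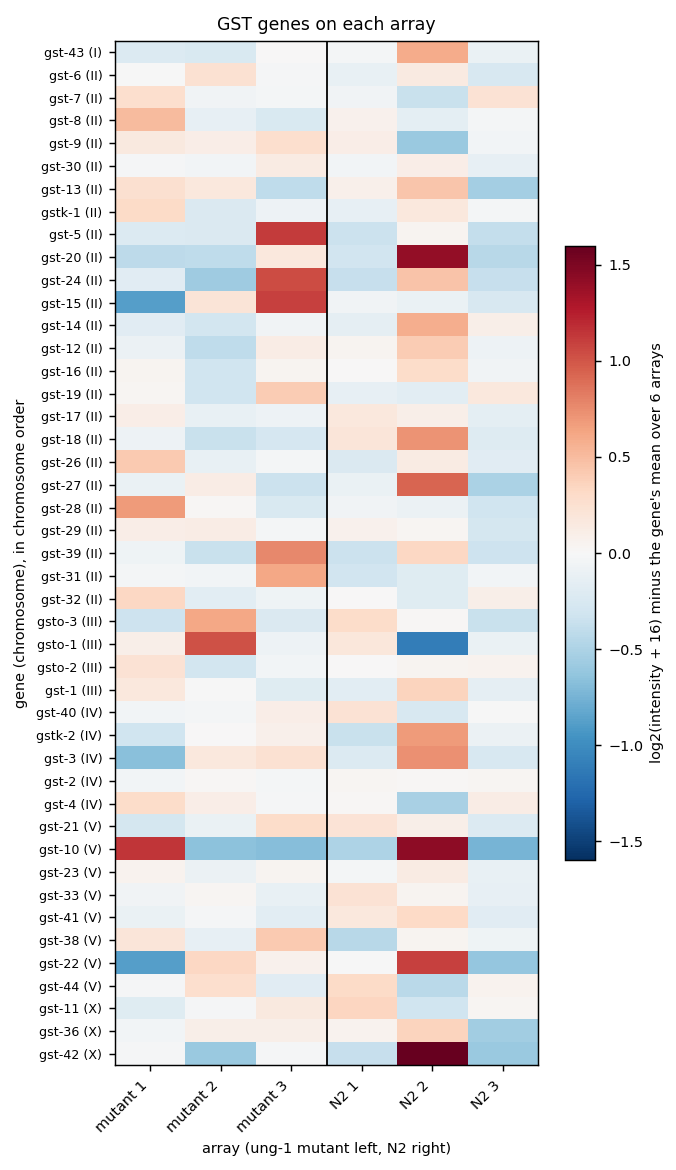
Each row is a GST gene with its chromosome in brackets, in the order of the RefSeq table, and each column an array, with the ung-1 mutant left of N2. Colour gives log2(intensity + 16) minus the gene's mean over the 6 arrays. Many strong colours sit on single arrays, such as N2 replicate 2 (gst-42, gst-20) and mutant replicate 3 (gst-5, gst-15, gst-24), while gst-10 is high on mutant replicate 1 and N2 replicate 2.

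Several members varied widely between arrays of one genotype. Around its group means, a GST gene had a median residual SD of 0.275 on the log2 scale, against 0.257 for all genes, and 7 of 45 members lay above the 90th percentile of all genes. These were gst-10 (1.12), gst-42 (0.88), gst-20 (0.77), gst-22 (0.76), gst-15 (0.71), gst-24 (0.68) and gsto-1 (0.64). At the other end were gst-2 (0.02), gst-23 (0.11) and gst-30 (0.11).

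A single array stood at least 1.5 times above the next one in 12 members, a step chosen after the values were seen. On N2 replicate 2 these were gst-20, gst-22, gst-27, gst-42, gst-43 and gstk-2, which is 13.3% of members, where 4.6% of all genes did the same. On mutant replicate 3 they were gst-5, gst-15, gst-24 and gst-31, 8.89% of members and 3.31% of all genes. The other cases were gst-28 on mutant replicate 1 and gsto-1 on mutant replicate 2. No such step was seen on N2 replicates 1 and 3.

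**Figure D3:**
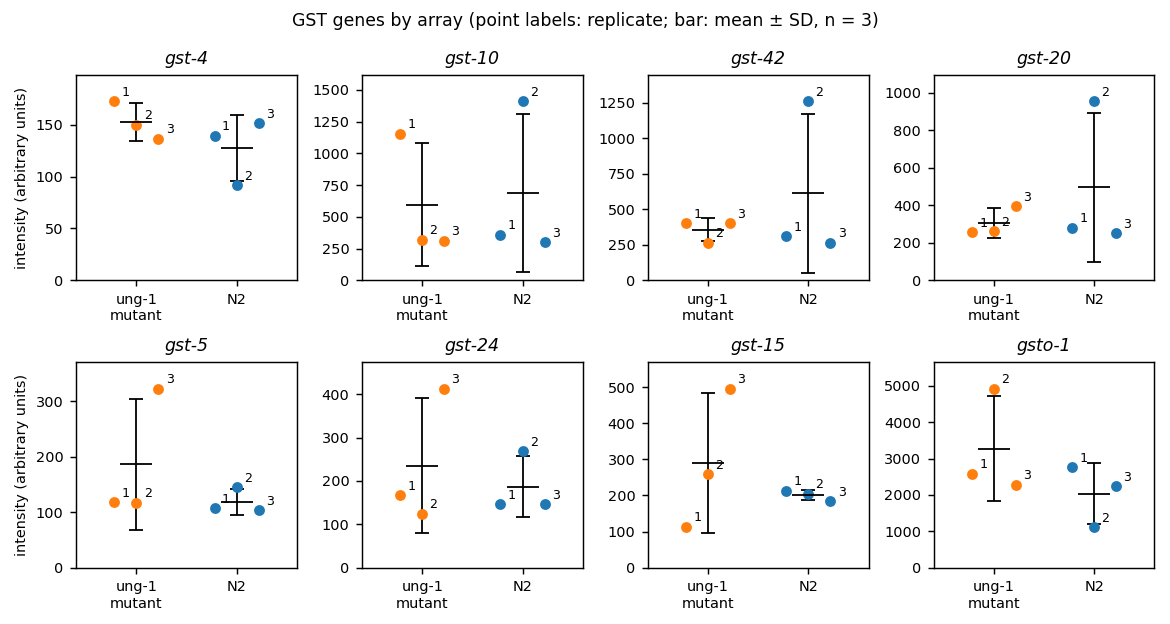
Intensity of 8 GST genes on each array, with mutant points (orange) left of N2 points (blue), replicate numbers beside the points, and mean ± SD as black bars (n = 3). In gst-42 and gst-20 the N2 replicate 2 point stands apart, in gst-5, gst-24 and gst-15 the mutant replicate 3 point, and in gst-10 one point of each genotype.

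Counted over the whole family, 17 of 45 members (37.8%) had their highest value on N2 replicate 2, as did 33.2% of all genes. N2 replicate 3 held the lowest value for 15 members (33.3%), against 10.4% of all genes. Mutant replicate 3 held the lowest value for 2 members (4.44%), against 28.9% of all genes. Relative to each gene's mean, the family median was -0.025, -0.040 and -0.015 on mutant replicates 1 to 3, against -0.026, 0.109 and -0.134 on those of N2. The family's mutant values lay between those of N2 replicates 2 and 3. For all genes the medians were 0.02, -0.051 and -0.067 on mutant replicates 1 to 3, against -0.016, 0.085 and -0.019 on those of N2.

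Marker lists of tissues differed between single arrays as well, given here as the list's median on the log2 scale relative to each gene's mean. The 8 oocyte markers stood at 0.301, 0.055 and -0.694 on mutant replicates 1 to 3, against 0.139, -0.016 and 0.362 on those of N2, with summed intensities of 29329 to 47614 in the mutant and 38936 to 52255 in N2. The 7 sperm markers stood at 0.249, 0.512 and -0.598 in the mutant, against -0.466, 0.048 and 0.147 in N2, with sums of 2583 to 7350 in the mutant and 2654 to 5773 in N2. Both germline lists were thus lowest on mutant replicate 3. The 4 body wall muscle markers stood at -0.868, 0.591 and 0.232 in the mutant, against 0.614, -0.831 and 0.170 in N2, with sums of 4369 to 9308 in the mutant and 5722 to 10737 in N2. The 4 neuron markers stood at -0.465, -0.174 and 0.292 in the mutant, against 0.247, -0.552 and 0.054 in N2, with sums of 5610 to 7967 in the mutant and 6562 to 7611 in N2. Muscle and neuron lists were both low on mutant replicate 1 and N2 replicate 2. The 8 intestine markers stood at 0.046, 0.659 and -0.344 in the mutant, against -0.002, 0.093 and -0.308 in N2, with sums of 15883 to 27573 in the mutant and 13168 to 26466 in N2. The 7 hypodermis markers stood at 0.191, 0.151 and 0.039 in the mutant, against -0.412, -0.189 and 0.154 in N2, with sums of 13991 to 18136 in the mutant and 10713 to 14369 in N2. The intestine list was highest on mutant replicate 2 and the hypodermis list lowest on N2 replicate 1. Between the genotypes, 2 of 8 oocyte markers and 1 of 8 intestine markers had groups apart, against 6.41% of all genes. These were oma-2 (-0.41, SE 0.14), cpg-1 (-0.38, SE 0.16) and the intestine gene pept-1 (0.91, SE 0.26). The second probe sets of oma-2 and cpg-1 overlapped. In the hypodermis, sperm, muscle and neuron lists 0 were apart, and no marker passed the adjusted threshold. The part of these marker lists in the array profiles of GST genes was not tested.

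**Figure D4:**
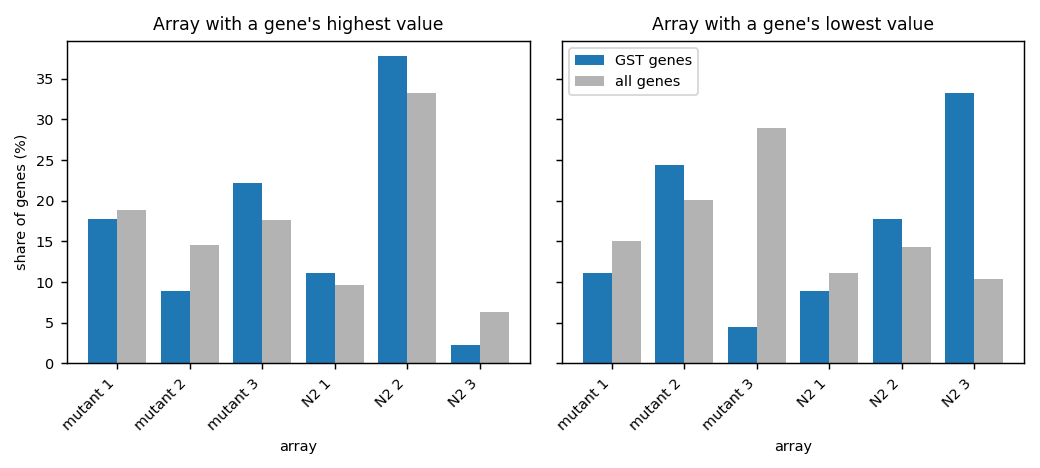
Share of GST genes (blue, n = 45) and of all genes (grey, n = 17118) whose highest value (left) or lowest value (right) fell on each array, with the mutant arrays left of those of N2. N2 replicate 2 leads the highest values in both sets, while N2 replicate 3 holds 33.3% of the lowest GST values and 10.4% of those of all genes.

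A list of glutathione and redox genes held the enzymes of glutathione synthesis and its reductase (gcs-1, gss-1 and gsr-1), and otherwise glutathione peroxidase family (gpx), glutaredoxin (glrx), thioredoxin reductase (trxr) and glyoxalase-related genes. None of its 20 measured genes passed the adjusted threshold, and 1 reached an unadjusted p of 0.05, against 1.86% of all genes. The median fold change was -0.007, with values from -0.39 for gpx-4 up to a 2-fold difference for djr-1.2, and 10 genes were above 0, where 41.7% of all genes were. The gene gcs-1, which encodes the enzyme of the first step of glutathione synthesis and is a SKN-1 target, read 2209, 2006 and 1767 on mutant replicates 1 to 3, against 2025, 1759 and 2279 on those of N2 (-0.02, SE 0.17). Glutathione synthetase, gss-1, stood at 0.00 (SE 0.16) and glutathione reductase, gsr-1, at 0.04 (SE 0.18), both with overlapping groups. The glutathione peroxidase family gene gpx-4 had the smallest p, with 89.4, 78.3 and 76.2 in the mutant, against 104, 131 and 101 in N2. Its mutant arrays all lay below those of N2, but it did not pass (-0.39, SE 0.16, limma adjusted p 0.999). The glutaredoxin gene glrx-3 was apart in the other direction without passing (0.40, SE 0.21). On main probe sets these were the 2 of 20 genes with groups apart, against 6.41% of all genes. The glyoxalase-related gene djr-1.2, the list's only gene at 2-fold (SE 0.71 on the log2 scale), rested on mutant replicate 3, which read 570 where the other mutant arrays read 52.7 and 116, and N2 read 84.5, 62.1 and 68.3.

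The list of SKN-1 and its regulators had a median fold change of 0.061 over 16 genes, with 10 above 0 (41.7% of all genes), 0 past the adjusted threshold and 1 at an unadjusted p of 0.05 (1.86% of all genes). The gene skn-1 itself read 1343, 1531 and 1591 on mutant replicates 1 to 3, against 1507, 1124 and 1738 on those of N2 (0.05, SE 0.20). Its other probe sets stood at -0.06 and 0.20. Its repressor gene wdr-23 read 620, 1253 and 1151 in the mutant, against 699, 740 and 756 in N2 (0.39, SE 0.27), with mutant replicate 1 below all N2 arrays. The list's smallest p was that of hcf-1, whose product restrains DAF-16 and SKN-1 in worms. It read 2705, 2294 and 1630 in the mutant, against 3635, 3129 and 3543 in N2. The groups did not overlap, but the gene did not pass (-0.66, SE 0.21, limma adjusted p 0.999), and its second probe set overlapped at -0.03 (SE 0.27). On main probe sets 2 of the 16 genes were apart, against 6.41% of all genes. The other was gsk-3, with the mutant above N2 (0.18, SE 0.13), and its second probe set overlapped at -0.13 (SE 0.22).

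ABC transporters of the MRP family carry glutathione conjugates out of cells. On their main probe sets, the 8 mrp genes had a median fold change of 0.130, with 5 above 0 (41.7% of all genes). On these, 0 passed the adjusted threshold or an unadjusted p of 0.05. The gene mrp-5, which exports heme in worms, read 2818, 5369 and 3977 on mutant replicates 1 to 3, against 2961, 1667 and 3377 on those of N2. The groups overlapped (0.61, SE 0.34). Its second, dimmer probe set also overlapped and stood at 1.04 (SE 0.44, limma unadjusted p 0.0492, adjusted p 0.999). The gene mrp-3 was the only one whose main probe set was apart, with 355, 449 and 349 in the mutant, against 348, 333 and 262 in N2 (0.28, SE 0.18). Over all genes, 6.41% were apart.

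**Figure D5:**
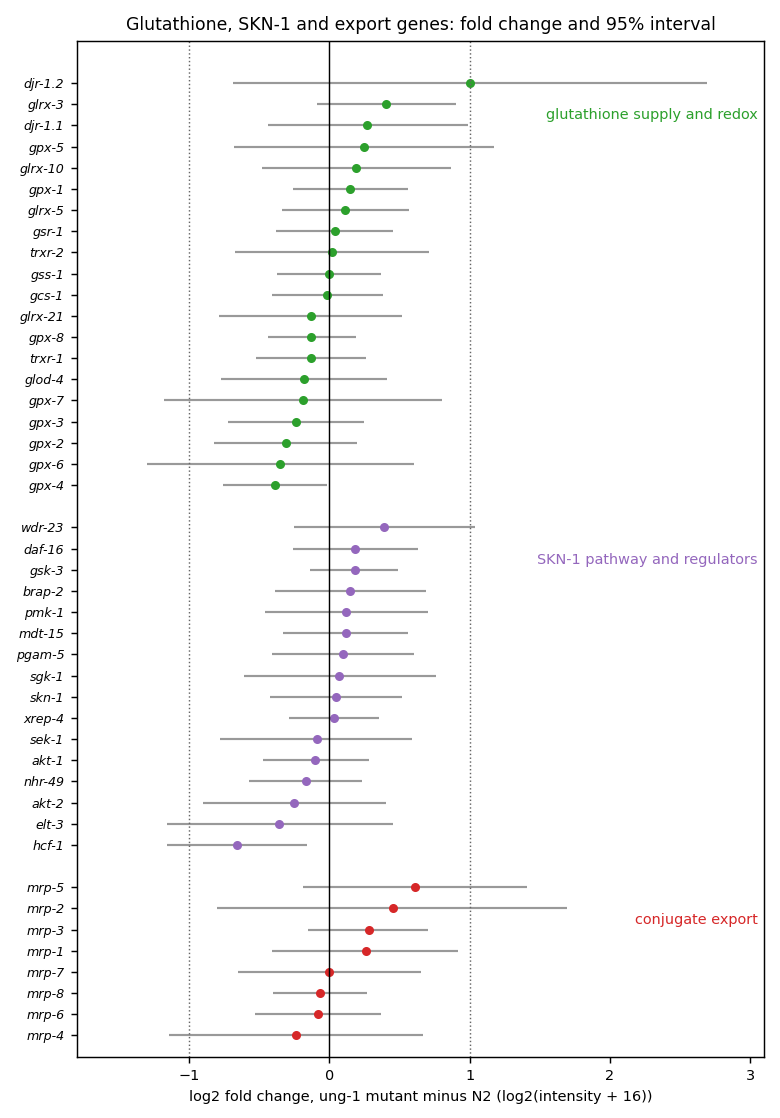
Log2 fold change, ung-1 mutant minus N2, with limma 95% confidence intervals for 20 genes of glutathione supply and redox (green), 16 genes of the SKN-1 pathway (purple) and 8 mrp genes (red), 1 probe set per gene. Dotted lines mark a 2-fold change. The intervals of gpx-4 and hcf-1 lie below 0, and neither gene passed the adjusted threshold.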

How the data were processed

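The deposited table holds 1 linear intensity per probe set and array. The authors' summarisation, background correction and scaling of these intensity values were not given in the sources used here. No detection calls were used. Per the labels' protocols, Trizol RNA was labelled with biotin. In the deposited intensity table, 1361 whole numbers that match spreadsheet dates (1.003% of cells) were turned back into the small numbers they stand for, in 3 cells of family probe sets (gst-32 and the second probe set of gst-40). Probe sets were named from the platform annotation. All 22548 non-control probe sets were fitted on log2(intensity + 16) in R 4.3.3, limma version 3.58.1, without a block, further normalization or filter. The limma step was tested on simulated data. Exact permutation tests used all 20 regroupings. Other settings were offsets of 1 and 50, quantile scaling, median centring, date cells as deposited or missing, an intensity trend, array weights, a replicate block, each array left out, dim or multi-transcript probe sets removed, and the mean over a gene's probe sets.

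The members and lists were chosen with earlier results of these data known. Named genes were 16 members of studied role or class, the 5 with the smallest p in each direction and every member with its groups apart. In related lists, up to 4 genes were to be named by smallest p, and others (gcs-1, gss-1, gsr-1, djr-1.2, skn-1, wdr-23) were chosen after their values were seen, as were members named outside the rule. Same-numbered arrays were not paired, with correlations of their deviations of -0.187, 0.09 and 0.104. Sequences were not used here. Tables and figures used matplotlib 3.10.9, pandas 2.3.3, numpy 2.4.6 and Python 3.11.15.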

Additional observations from a re-analysis of the deposited data

How the results depend on the processing

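Under 18 other settings and 1 more (without mutant replicate 3 and N2 replicate 2 together, chosen after seeing the data), 0 GST members passed limma's adjusted p. The count at an unadjusted p of 0.05 was 0 to 1 with 1 array left out. The count of members with groups apart, 1 with all arrays, was 2 with median centring (6.01% of all genes), 0 when the dimmest probe sets (the third with the lowest mean) were left out (5.13% of all genes), 4 to 6 with 1 array left out (up to 21.6% of all genes) and 16 with both arrays left out (33.6% of all genes). Fewer arrays alone make separation more frequent. The family median was -0.042 to 0.111 with 1 array left out. With the replicate number as a block, fold changes cannot move, since each block holds 1 array of each genotype. The family median of 0.015 was thus fixed in advance. Under this block 0 members passed, and ung-1 did not pass either (unadjusted limma p 7.3e-05, against 3.39e-06 without a block). The log2 fold change of ung-1 passed with an intensity trend (-2.01, limma adjusted p 0.0118) and array weights (-1.93, 0.0392). It ran from -2.08 to -1.93 with 1 array left out, without passing. With values as deposited it was also under the threshold (-2.01, limma adjusted p 0.0276). There the date numbers stood unrestored, and 6 probe sets passed, against 0 in the main fit. The unadjusted limma p of ung-1 was larger there (7.34e-06 against 3.39e-06). Of 411 values of the 22 named members under the alternatives, 382 kept their sign, and 10 genes turned under some setting. Part of these 411 values could not turn, so the count overstates how stable the signs were. Removing dim or multi-transcript probe sets left the fold change of each named member still measured as it was. So did the date cell settings, the replicate block, the intensity trend and the mean over a gene's probe sets. With 1 array left out the ranges were -0.123 to 0.145 for gst-1, -0.027 to 0.265 for gst-7, -0.149 to 0.229 for gst-8, -0.731 to 0.558 for gst-10, -0.287 to 0.519 for gst-24, -0.818 to 0.275 for gst-42, -0.162 to 0.107 for gstk-1, -0.377 to 0.138 for gstk-2, -0.207 to 0.058 for gsto-2 and -0.265 to 0.208 for gsto-3. Median centring gave 0.014 for gst-1 and 0.036 for gstk-1. Array weights gave 0.121 for gst-1, -0.023 for gst-8, 0.149 for gst-10, 0.001 for gstk-1 and 0.136 for gstk-2. With both arrays left out the values were 0.238 for gst-1, 0.868 for gst-10, -0.016 for gst-24, 0.178 for gst-42, 0.116 for gstk-1 and 0.058 for gstk-2. None of these values was past the threshold, and the cause was not tested. Of the 45 members, 31 had a value once dim probe sets were removed, and 37 once those shared by several transcripts were removed. The number of arrays limits precision, and distance from background is unknown.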
